A study of Mus musculus with 22 samples.

Results

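Granulation tissue of WT mice was compared between 21 d and 14 d after implantation of a viscose cellulose sponge (VCS), on 4 arrays of each day out of 22 arrays in the series. The 8 arrays were chosen by their labelled genotype and day, and all 4 replicates of each day were used. The mice were 5 to 8 weeks old males of a C57BL/6 x 129 mixed background, derived from heterozygous Mmp13-/- mice that had been backcrossed for at least 7 generations. A sterile sponge of 5 by 5 by 10 mm had been placed under the dorsal skin, and total RNA was taken from the ends of the sponge, 1 sample per mouse. No agent was given, and only the time in the sponge separates the groups by design. The other arrays (WT at 7 d, and Mmp13-/- tissue, which lacks the collagenase matrix metalloproteinase 13, at 7, 14 and 21 d) entered the fit to estimate the spread and the effect of the hybridization series.

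Granulation tissue is the cellular, vascular tissue that fills a healing wound or an implanted scaffold. Neutrophils and monocyte-derived macrophages enter first and secrete chemokines and cytokines under the control of NF-kappaB and interferon signals, and fibroblasts, myofibroblasts and new vessels follow and lay down collagen and proteoglycans. As such tissue matures, inflammation normally subsides and the matrix is remodelled. The sponge tissue holds all these cells, so fewer cells of a type and less RNA per cell cannot be told apart in what follows.

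Signals are log2 values from robust multi-array averaging (RMA), so that a difference of 1 is a doubling, and no absolute RNA amount or level relative to another probe set can be read from them. The labels name a first hybridization series (2 µg of RNA, one-cycle labelling) and a second (250 ng of RNA, another labelling kit). All 4 WT arrays at 21 d and replicate 4 at 14 d belong to the second series, and replicates 1 to 3 at 14 d belong to the first. The series itself differed between arrays at an adjusted p under 0.05 for 5985 of 45037 probe sets (13.3%), so each difference below is the one fitted with the series as a term. That term rests on the replicate 4 arrays of both genotypes at 14 d. Col1a1, the gene of a chain of type I collagen, shows what the term does: its signals were 13.09, 13.03, 13.14 and 13.13 at 21 d, against 10.80, 11.07, 11.20 and 13.15 at 14 d, and the fitted difference was 0.11 (adjusted p = 0.832), since the only 14 d array of the second series lay at the 21 d level. Fibroblast matrix and myofibroblast genes, which define granulation tissue, had strong signals: on the 8 arrays Col3a1, of type III collagen, lay between 13.13 and 13.49, and Acta2, smooth muscle actin, between 11.13 and 11.87. Mmp13, the gene deleted in the other genotype, read 7.62 to 8.51 on the 8 Mmp13-/- arrays of these days, against 10.55 to 12.02 on the 8 WT arrays. Array medians over all 22 arrays ran from 4.16 to 4.27. WT 21 d replicate 3 stood apart, with an SD over its probe sets of 2.19, against 2.30 to 2.31 on the other WT 21 d arrays and 2.32 to 2.33 on the WT 14 d arrays.

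Between 21 d and 14 d, 189 probe sets passed an adjusted p under 0.05 (0.42%), of which 82 were higher at 21 d (0.182%) and 107 lower (0.238%). The study set its threshold between days at more than a doubling with a p under 0.05. It names neither an adjustment of that p nor a term for the hybridization series. With the p read as unadjusted and the term kept, 105 probe sets were higher and 245 lower (together 0.777%). Each gene was represented by its brightest probe set that is annotated to it alone, and among these 18193 genes 39 rose (0.214%) and 63 fell (0.346%), together 0.561%. A gene counts as called below only where this probe set was called. The called probe sets annotated to 1 gene alone covered 159 genes, so some genes had only a dimmer probe set called. Among the 63 genes that fell were genes of the interferon response, the NF-kappaB response, the CXC chemokines and the response to low oxygen. The largest rises were those of Scg2, Reln and Egfl6, which encode a secretogranin, reelin and a matrix protein. All 189 called probe sets had the same direction when the 4 WT 21 d arrays were set against the only WT 14 d array of their own hybridization series, and on 142 of them the 21 d and 14 d arrays did not overlap, whereas over all probe sets 7.29% had every 21 d array above and 5.43% every 21 d array below the 14 d arrays. The 189 had been chosen by a fit of these same arrays, so neither count is separate support for them. No probe set passed the adjusted threshold within the second series alone, where WT 14 d has only 1 array. No more passed an unadjusted p under 0.05 there than chance alone gives at that threshold. The calls depended on the 14 d arrays of the second series: without Mmp13-/- 14 d replicate 4 only 6 probe sets were called, and of the 102 genes only Spats2l kept its call (adjusted p = 0.0391). Without WT 14 d replicate 4, 44 probe sets were called, and 6 of the 102 genes kept their call, namely Acod1, Cdkn2a, Nfe2, Rsad2, Slfn4 and Trim30d. Without WT 21 d replicate 4, 671 probe sets were called. No gene was called in all 12 fits that each left out 1 array. All 102 kept an unadjusted p under 0.05 and their direction in 11 of the 12, and 100 did without WT 14 d replicate 4. These genes had been chosen for a low p on nearly the same arrays, so that is no separate support for them.

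**Figure D1:**
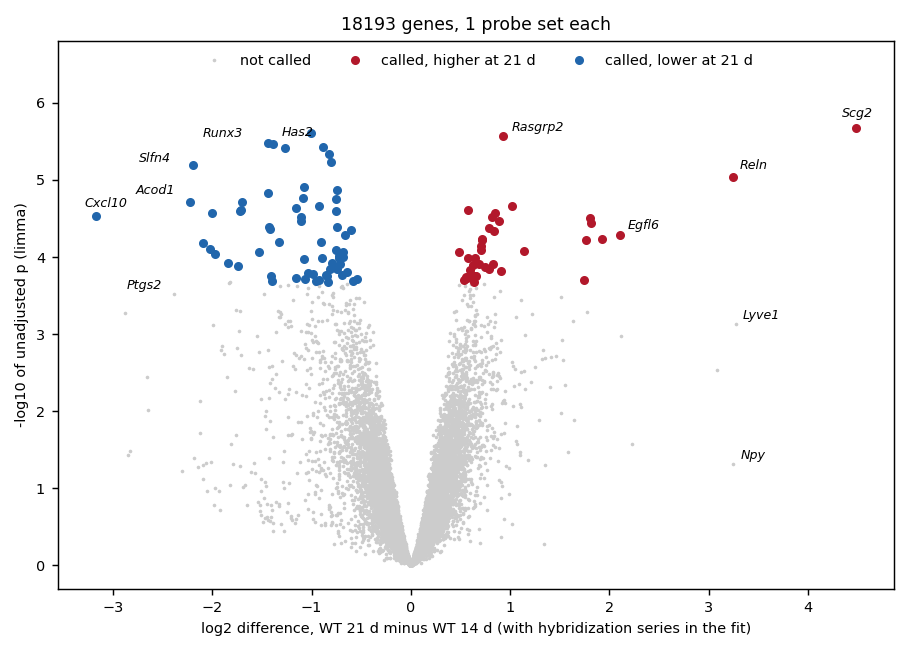
Each point is a gene, with its fitted log2 difference (WT 21 d minus WT 14 d) on the x axis and -log10 of its unadjusted p from limma on the y axis. The 39 genes that rose are red, with Scg2 farthest to the right at 4.49, and the 63 that fell are blue, with Cxcl10 farthest to the left at -3.17; Lyve1, Npy and Mmrn1 (unlabelled) differed by more than 3 without passing the adjusted threshold.

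Most of the interferon-induced genes named here were lower at 21 d. Cxcl10, a chemokine that interferon induces and that draws activated T cells, fell most of all 18193 genes. Its signals were 6.30, 5.37, 5.37 and 5.88 at 21 d, against 9.55, 9.01, 9.81 and 8.28 at 14 d, and the fitted log2 difference was -3.17 (standard error 0.59, adjusted p = 0.0278). The days were far apart, and the 14 d array of the second series was the lowest of its day. Slfn4, an interferon-induced gene of myeloid cells, read 9.01, 8.44, 8.77 and 9.56 at 21 d, against 11.82, 11.53, 11.81 and 10.73 at 14 d and fell by 2.19 (standard error 0.36, adjusted p = 0.0203). Rsad2, whose product viperin blocks the replication of viruses, read 9.31, 9.29, 9.22 and 9.19 at 21 d, against 11.36, 10.74, 11.58 and 10.46 at 14 d with a difference of -1.70 (standard error 0.30, adjusted p = 0.0261). The 21 d arrays of Rsad2 lay within 0.12 of each other, whereas the 14 d arrays spread over 1.12. Mx1, an antiviral GTPase, had a difference of -1.97 (adjusted p = 0.0402), Usp18, which removes the ubiquitin-like ISG15 from proteins and damps interferon signalling, of -1.53 (adjusted p = 0.0391), Cmpk2, a mitochondrial nucleotide kinase encoded beside Rsad2, of -2.02 (adjusted p = 0.0385), and Ifitm1, a membrane protein that hinders the entry of viruses, of -1.72 (adjusted p = 0.0261). Ms4a4c, of the membrane-spanning 4A family, fell as well, with -2.09 (adjusted p = 0.0351). Trim30d and Helz2, picked here after their values were seen, had -1.16 (adjusted p = 0.0261) and -1.42 (adjusted p = 0.0312). Ifi27, named as interferon-inducible, outside the list and likewise picked late, rose instead (adjusted p = 0.0489). Its difference was 0.61 in the second series alone and 0.59 to 0.71 when 1 array was left out. Its adjusted p was 0.175 without Mmp13-/- 14 d replicate 4 and 0.199 without WT 14 d replicate 4.

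In a list of 26 measured interferon response genes, 3 fell at the adjusted threshold (Rsad2, Usp18 and Mx1), where 0.346% of all genes did. An unadjusted p under 0.05 with a lower signal at 21 d was found for 25 of the 26, against 7.87% of all genes, and all 26 fitted differences were negative. The median difference of the list was -0.97 and that of all genes 0.01. On 21 of the 26 genes every 21 d array lay below every 14 d array, against 6.32% of all genes. Ifit1, an RNA-binding effector, just missed the threshold with -1.84 (standard error 0.41, adjusted p = 0.0511) and with signals of 8.17, 7.68, 8.04 and 7.49 at 21 d, against 9.80, 9.44, 9.82 and 9.21 at 14 d. Iigp1, an immunity-related GTPase, was the only member without an unadjusted p under 0.05. The mean signal of the list was 9.56 to 9.71 on the WT arrays at 7 d, 8.43 to 9.28 at 14 d and 7.65 to 7.93 at 21 d (3, 4 and 4 arrays), and the 3 days did not overlap. Within the second series the median difference of the list was -0.61, the 14 d value there being the lowest of the 4, and without WT 14 d replicate 4 it was -1.55. In Mmp13-/- tissue, whose change is fitted with the same series term, the list's median was -0.98. Without Mmp13-/- 14 d replicate 4, the adjusted p of the 10 called genes that fell in the preceding paragraph lay between 0.109 and 0.209. Without WT 14 d replicate 4 it lay between 0.0266 and 0.089.

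Many promoters of such genes hold an interferon-stimulated response element, and those of the neutrophil-attracting chemokines and of the NF-kappaB inhibitor genes hold NF-kappaB sites. The 250 bases before the annotated start are shown for 6 of these genes, from RefSeq on GRCm38.p6 and read 5′ to 3′ along the gene's strand, because they let the genes that were lower together be compared at the sequence level. Capitals mark matches on either strand to the half-sites GAAA and GAAA with any 2 bases between them, as in the interferon element, in Cxcl10, Rsad2 and Ifit1, and to GGGA and TCC with any 3 bases between them, as in an NF-kappaB site, in Cxcl10, Nfkbia, Cxcl1 and Cxcl2.
Cxcl10 (chr5:92348890-92349139, minus strand): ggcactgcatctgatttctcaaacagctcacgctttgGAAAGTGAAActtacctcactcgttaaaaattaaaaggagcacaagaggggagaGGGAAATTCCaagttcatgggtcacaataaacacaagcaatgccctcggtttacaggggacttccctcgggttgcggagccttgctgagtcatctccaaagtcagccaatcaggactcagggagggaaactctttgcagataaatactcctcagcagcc
Rsad2 (chr12:26456453-26456702, minus strand): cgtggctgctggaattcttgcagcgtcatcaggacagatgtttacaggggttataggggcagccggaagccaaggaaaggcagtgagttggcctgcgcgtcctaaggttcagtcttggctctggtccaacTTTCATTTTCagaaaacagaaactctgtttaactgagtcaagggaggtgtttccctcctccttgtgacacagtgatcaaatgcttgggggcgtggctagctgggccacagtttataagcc
Ifit1 (chr19:34640639-34640888, plus strand): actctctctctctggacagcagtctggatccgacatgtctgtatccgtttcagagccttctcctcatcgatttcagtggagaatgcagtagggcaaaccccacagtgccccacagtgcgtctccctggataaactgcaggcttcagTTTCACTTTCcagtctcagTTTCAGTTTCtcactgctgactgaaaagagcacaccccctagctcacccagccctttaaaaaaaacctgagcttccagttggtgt
Nfkbia (chr12:55492648-55492897, minus strand): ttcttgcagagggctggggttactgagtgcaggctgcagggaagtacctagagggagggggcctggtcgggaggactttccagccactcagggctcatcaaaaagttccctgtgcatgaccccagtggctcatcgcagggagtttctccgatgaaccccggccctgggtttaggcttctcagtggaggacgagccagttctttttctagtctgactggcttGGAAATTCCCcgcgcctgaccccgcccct
Cxcl1 (chr5:90890995-90891244, plus strand): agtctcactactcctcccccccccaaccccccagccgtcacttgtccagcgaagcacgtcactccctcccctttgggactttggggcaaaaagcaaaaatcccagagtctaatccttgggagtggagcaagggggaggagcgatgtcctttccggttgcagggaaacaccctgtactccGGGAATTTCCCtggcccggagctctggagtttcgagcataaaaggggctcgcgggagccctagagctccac
Cxcl2 (chr5:90903649-90903898, plus strand): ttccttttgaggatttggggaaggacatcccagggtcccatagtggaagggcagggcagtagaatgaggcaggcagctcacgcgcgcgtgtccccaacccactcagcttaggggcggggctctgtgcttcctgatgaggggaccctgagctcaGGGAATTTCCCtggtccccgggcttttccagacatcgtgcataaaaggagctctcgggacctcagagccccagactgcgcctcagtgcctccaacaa
Cxcl10 held 1 match of each kind, Rsad2 held 1 and Ifit1 2 of the interferon kind, and in Cxcl1 and Cxcl2 the NF-kappaB letters matched on both strands at overlapping positions. Of 27025 genes with a promoter in the table, 3.46% held the interferon letters and 4.41% the NF-kappaB letters. Of the 26 measured interferon response genes 21 had a promoter in the table, and 11 of these held the interferon letters. The narrower pattern GGGA and TTTCC with any 1 base between them was found in 0.414% of all promoters, and in those of Cxcl1, Cxcl2 and Cxcl3 among 18 genes of the CXC chemokine list, and in those of 1 gene, Nfkbia, among 20 of the acute phase and NF-kappaB list. The wider NF-kappaB letters were held by 2 of these 20 and by 4 of the 18 CXC genes. A match is a description of the letters and not evidence of a bound site. The lists were built from genes of these responses, so the shares do not bear on the change between days.

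Genes that NF-kappaB induces, including its own inhibitors, were lower at 21 d. Saa3, an acute phase protein made by macrophages and stromal cells, had signals of 10.07, 9.19, 10.19 and 10.64 at 21 d, against 11.72, 11.65, 11.61 and 11.58 at 14 d, a difference of -1.71 (standard error 0.31, adjusted p = 0.0261). The 14 d arrays were within 0.14 of each other whichever series they came from, and all 21 d arrays were lower. Nfkbiz, an inducible regulator of NF-kappaB target genes, read 7.04, 6.93, 6.79 and 7.45 at 21 d, against 8.23, 8.27, 8.12 and 7.95 at 14 d, with a difference of -1.08 (standard error 0.19, adjusted p = 0.0261). Nfkbia, which encodes the inhibitor that holds NF-kappaB in the cytoplasm and whose promoter is given above, differed by -0.80 (adjusted p = 0.0433), with 5 of 5 probe sets of the same sign. Tnfaip3, encoding the ubiquitin-editing inhibitor A20, differed by -0.69 (adjusted p = 0.0485), and its other probe set had the opposite sign. Tnfaip6, a hyaluronan-binding protein induced by TNF, differed by -1.41 (adjusted p = 0.0489). Nfkbie, a further inhibitor, and Sod2, the mitochondrial superoxide dismutase, lie outside the list and were picked after their values were seen; they differed by -0.98 (adjusted p = 0.0485) and -0.76 (adjusted p = 0.0385).

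Of 26 measured acute phase and NF-kappaB genes, 5 fell (0.346% of all genes did), 0 rose, 11 had an unadjusted p under 0.05 with a lower signal (7.87% of all genes), and 25 differences were negative, with a median of -0.45. Every 21 d array lay below every 14 d array for 11 of them, against 6.32% of all genes. Ptgs2, the inducible cyclooxygenase that starts prostaglandin synthesis, read 5.47, 3.86, 3.62 and 6.11 at 21 d, against 7.27, 7.44, 6.95 and 7.28 at 14 d, and its difference of -2.39 (standard error 0.55, adjusted p = 0.0579) did not pass. The alarmin genes S100a8 and S100a9, which neutrophils express strongly, differed by -1.02 (adjusted p = 0.249) and -1.21 (adjusted p = 0.256), with overlapping days: WT 21 d replicate 4 read 11.08 for S100a8, against 9.43 to 9.70 on the other 21 d arrays. The mean signal of the list was 7.74 to 7.85 at 7 d, 7.31 to 7.50 at 14 d and 6.49 to 6.96 at 21 d. Without Mmp13-/- 14 d replicate 4, the 7 called genes of the preceding paragraph had adjusted p-values of 0.125 to 0.219, and without WT 14 d replicate 4 of 0.0538 to 0.257.

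Cxcl1 and Cxcl2, chemokines that bind the neutrophil receptor CXCR2, fell as well. Cxcl2 had signals of 7.28, 7.23, 6.66 and 8.52 at 21 d, against 9.39, 9.79, 9.08 and 9.18 at 14 d, and fell by 1.85 (standard error 0.39, adjusted p = 0.0433). WT 21 d replicate 4 was the highest array of its day in Cxcl2 and still lay below all 14 d arrays. Cxcl1 differed by -1.15 (adjusted p = 0.0497) with 3 of 3 probe sets of the same sign. Cxcl5, of the same group, read 7.86, 7.07, 6.92 and 8.50 at 21 d, against 9.26, 9.28, 9.09 and 9.08 at 14 d, and its difference of -1.32 (adjusted p = 0.073) did not pass. Of 22 CXC chemokines and receptors 3 fell, namely Cxcl10, Cxcl2 and Cxcl1, and 9 had an unadjusted p under 0.05 with a lower signal, where 0.346% and 7.87% of all genes did, the median being -0.29. Among 23 CC chemokines and receptors none was called, and 6 had an unadjusted p under 0.05 with a lower and 2 with a higher signal (7.87% and 7.72% of all genes). Of the CC list Ccr2, the receptor by which inflammatory monocytes follow CCL2, differed by -0.99 (adjusted p = 0.0613) and Ccl2 itself by -0.99 (adjusted p = 0.201). Fpr2, a formyl peptide receptor of neutrophils and macrophages, read 6.10, 6.28, 6.21 and 7.07 at 21 d, against 8.83, 8.38, 8.99 and 8.01 at 14 d, a difference of -2.004 (standard error 0.37, adjusted p = 0.0266). Acod1, which makes the antimicrobial metabolite itaconate in activated macrophages, read 7.27, 7.76, 7.30 and 8.94 at 21 d, against 10.19, 10.04, 10.08 and 9.58 at 14 d, a difference of -2.23 (standard error 0.40, adjusted p = 0.0261).

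Of 28 inflammatory cytokines and receptors 23 differences were negative, with a median of -0.25. An unadjusted p under 0.05 with a lower signal was found for 7, against 7.87% of all genes, and 1 fell, against 0.346%. That gene was Osmr, the receptor subunit for oncostatin M, with -0.68 (adjusted p = 0.0391), although only 1 of its 3 probe sets had a negative sign. Il6 read 2.75, 3.40, 3.46 and 4.00 at 21 d, against 4.53, 5.61, 4.80 and 5.53 at 14 d, with no overlap between days and a difference of -1.59 (adjusted p = 0.122). That difference was -0.69 without WT 14 d replicate 4 and -2.13 without Mmp13-/- 14 d replicate 4. Il1b differed by -1.33 (adjusted p = 0.157). Il17ra, the interleukin-17 receptor chain, is not a member of the list and was picked after its values were seen; it differed by -0.75 (adjusted p = 0.0261). Without Mmp13-/- 14 d replicate 4 the adjusted p of Cxcl1, Cxcl2, Fpr2, Acod1, Osmr and Il17ra lay between 0.0575 and 0.166, and without WT 14 d replicate 4 between 0.0434 and 0.299.

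The lists of the myeloid cells themselves did not move together. Of 23 macrophage and monocyte markers 12 differences were positive and 11 negative, the median was 0.08, and none was called. The mean signal of these markers was 8.89 to 8.95 at 21 d, against 9.10 to 9.23 at 14 d. Chil3, a chitinase-like protein of alternatively activated macrophages, read 4.19, 5.23, 4.04 and 5.49 at 21 d, against 7.28, 7.83, 7.35 and 7.36 at 14 d with a difference of -2.66 (adjusted p = 0.131), and Clec4e, a receptor for mycobacterial lipid and dead cells, differed by -1.03 (adjusted p = 0.0987). Mertk, which takes up apoptotic cells, read 8.56, 9.12, 8.55 and 8.70 at 21 d, against 8.02, 7.97, 7.91 and 8.00 at 14 d with a difference of 0.67 (adjusted p = 0.069), and Siglec1, a sialic acid receptor of resident macrophages, differed by 0.60 (adjusted p = 0.137). Of 16 markers of multinucleated giant cells and osteoclasts 3 had an unadjusted p under 0.05 with a higher signal (7.72% of all genes) and 1 with a lower (7.87%). The 3 were Atp6v0d2, a proton pump subunit used in cell fusion, with 10.95, 10.96, 10.99 and 10.74 at 21 d, against 10.36, 10.29, 9.55 and 10.33 at 14 d and a difference of 0.79 (adjusted p = 0.0966), Acp5, tartrate-resistant acid phosphatase, with 0.71 (adjusted p = 0.19), and Trem2, a lipid-sensing receptor of macrophages, with 0.49 (adjusted p = 0.282). Of 16 neutrophil markers 1 fell (Fpr2), against 0.346% of all genes, and 12 differences were negative, with a median of -0.28. Their mean signal was 5.51 to 6.09 at 21 d, against 6.05 to 6.42 at 14 d. Of 25 T and NK cell markers none was called: the granzyme gene Gzmb differed by -1.76 (adjusted p = 0.256) and Cd3g, a subunit of the T cell receptor complex, by 0.95 (adjusted p = 0.224).

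Genes of glycolysis and of the response to low oxygen were lower at 21 d. These are switched on by hypoxia-inducible factor when oxygen is short. Of 27 measured members 3 fell, against 0.346% of all genes, and 17 had an unadjusted p under 0.05 with a lower signal, against 7.87%. For 26 members the difference was negative, and the median was -0.54. Within the second series the median was -0.65. Bnip3, a mitochondrial protein of hypoxic autophagy, had signals of 10.14, 9.88, 10.15 and 10.45 at 21 d, against 10.85, 10.58, 10.51 and 11.15 at 14 d, a difference of -0.95 (standard error 0.21, adjusted p = 0.0499). Ndrg1, a stress-responsive gene, read 9.15, 9.03, 9.26 and 8.86 at 21 d, against 9.70, 9.61, 9.62 and 10.10 at 14 d, a difference of -0.93 (standard error 0.20, adjusted p = 0.0497), with 5 of 5 probe sets of the same sign. The array of the second series was the highest of the 14 d arrays in both genes. Hk1, a hexokinase, differed by -0.54 (adjusted p = 0.0497), but only 1 of its 2 probe sets had a negative sign. Egln3, a prolyl hydroxylase that marks hypoxia-inducible factor for degradation, differed by -1.34 (adjusted p = 0.0668), and Vegfa, the main growth factor of vessels, by -0.94 (adjusted p = 0.0766), with signals of 6.04, 5.73, 5.49 and 6.03 at 21 d, against 6.94, 6.60, 6.33 and 7.01 at 14 d. Pgf, a relative of Vegfa, differed by -1.401 (adjusted p = 0.116). Ak4, a mitochondrial adenylate kinase, Stc1, the glycoprotein hormone stanniocalcin, and Gys1, glycogen synthase, lie outside the list and were picked after their values were seen. Ak4 read 6.91, 6.59, 6.85 and 7.22 at 21 d, against 8.10, 7.73, 7.48 and 8.25 at 14 d, a difference of -1.26 (standard error 0.20, adjusted p = 0.0191), while Stc1 differed by -1.08 (adjusted p = 0.0261) and Gys1 by -1.03 (adjusted p = 0.0485).

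The letters ACGTG, the core of the site of hypoxia-inducible factor, were found in the promoters of 17 of the 26 members with a promoter in the table, against 18.5% of all genes. The list was built from genes of this response, so that share does not bear on the change between days. A match is not evidence of a bound site. The mean signal of the list was 9.10 to 9.23 at 7 d, 8.73 to 9.06 at 14 d and 8.21 to 8.60 at 21 d. Markers of skeletal muscle, a tissue that expresses many glycolytic genes, also had lower signals. Of 35 muscle markers 34 differences were negative, with a median of -1.31, and 0 were called. Their mean signal was 5.82 to 7.22 at 21 d, against 7.23 to 8.18 at 14 d, and it ranged over 5.06 to 8.89 at 7 d. Myh3, embryonic myosin heavy chain, differed by -2.85 (adjusted p = 0.318), and Myog, a factor of muscle differentiation, by -2.10 (adjusted p = 0.353). The part of muscle in the lower glycolytic signals was not tested. Without Mmp13-/- 14 d replicate 4 the adjusted p of Bnip3, Ndrg1, Hk1, Ak4, Stc1, Gys1 and of the collagen hydroxylase gene P4ha2 lay between 0.0558 and 0.188, and without WT 14 d replicate 4 between 0.114 and 0.376.

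**Figure D2:**
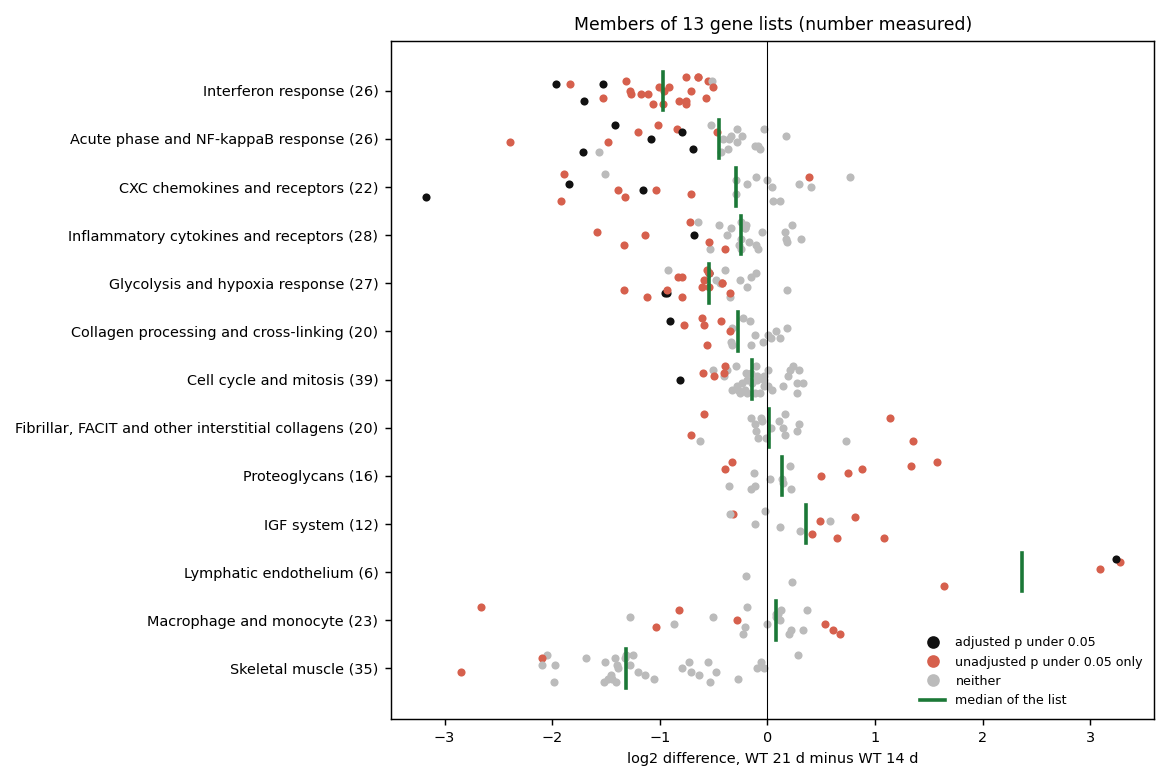
Each point is a measured gene of a list, placed by its fitted log2 difference (WT 21 d minus WT 14 d); black points passed an adjusted p under 0.05, red points only an unadjusted p under 0.05, and the green bar is the median of the list. All 26 interferon genes lie left of 0, 26 of 27 glycolysis and hypoxia genes do, and 5 of 6 lymphatic endothelial genes lie to the right.

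The genes that rose belonged to no single list. Scg2, a secretogranin of neuroendocrine granules that yields the vessel-active peptide secretoneurin, had the largest rise of all genes. Its signals were 8.56, 8.97, 8.33 and 5.46 at 21 d, against 3.57, 3.72, 3.81 and 3.38 at 14 d, and the fitted difference was 4.49 (standard error 0.68, adjusted p = 0.0191). WT 21 d replicate 4 was lower than the other 21 d arrays but above every 14 d array. Reln, encoding the secreted glycoprotein reelin, which lymphatic endothelium also makes, read 7.76, 7.71, 7.17 and 6.40 at 21 d, against 3.73, 3.46, 5.33 and 4.48 at 14 d, a difference of 3.24 (standard error 0.55, adjusted p = 0.0227). Stab2, a hyaluronan receptor of lymphatic and sinusoidal endothelium, read 5.04, 5.33, 5.26 and 4.54 at 21 d, against 3.91, 3.97, 3.77 and 4.02 at 14 d, a difference of 1.02 (standard error 0.18, adjusted p = 0.0261). Egfl6, an epidermal growth factor-like matrix protein, read 5.45, 5.17, 4.73 and 3.92 at 21 d, against 3.21, 2.99, 3.41 and 2.78 at 14 d, a difference of 2.11 (standard error 0.41, adjusted p = 0.0334). Kcne4, a regulatory subunit of potassium channels, differed by 1.76 (adjusted p = 0.0341), with WT 21 d replicate 4 at 6.52 and the other 21 d arrays at 7.55 to 7.71. Gpm6a, a neuronal membrane glycoprotein also known from lymphatic vessels, differed by 1.75 (adjusted p = 0.0497). It read 2.78 to 4.81 at 21 d, against 1.99 to 2.22 at 14 d, near the lowest signal of all arrays (1.43). It kept its call in 2 of the 12 fits that left out 1 array.

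The other genes with large rises included enzymes of lipid metabolism. Mgll, monoacylglycerol lipase, read 8.90, 8.98, 8.16 and 8.05 at 21 d, against 7.19, 6.96, 6.79 and 6.73 at 14 d, a difference of 1.81 (standard error 0.34, adjusted p = 0.0283), with 3 of 4 probe sets of the same sign. Hpgds, which makes prostaglandin D2 and marks mast cells, T helper cells and some macrophages, read 7.22, 6.81, 6.80 and 5.88 at 21 d, against 5.50, 5.77, 5.00 and 4.81 at 14 d, a difference of 1.81 (standard error 0.34, adjusted p = 0.0293). Of 14 mast cell markers it was the only one that rose, where 0.214% of all genes did, and the median of that list was -0.02. Cers4, a ceramide synthase, differed by 0.85 (adjusted p = 0.0265). Rasgrp2, an activator of the GTPase RAP1 in platelets and leukocytes, had close arrays of 6.34, 5.89, 6.05 and 6.07 at 21 d, against 5.10, 5.17, 5.26 and 5.22 at 14 d and differed by 0.92 (standard error 0.14, adjusted p = 0.0191). Syngr1, a synaptic vesicle protein, differed by 0.91 (adjusted p = 0.0474), Wdpcp, a gene of cilium formation, by 1.14 (adjusted p = 0.0391), Zfyve28 by 0.89 (adjusted p = 0.0292), and Pisd-ps3, a pseudogene of phosphatidylserine decarboxylase whose probe sets may share signal with its parent gene, by 0.84 (adjusted p = 0.0322). Cdkn2a, which encodes the cell cycle inhibitors p16INK4A and p19ARF, read 8.03, 6.66, 8.00 and 7.72 at 21 d, against 3.52, 3.06, 3.14 and 6.26 at 14 d. Its fitted difference was 1.92 (standard error 0.38, adjusted p = 0.034), and its series difference was 2.25, the 14 d array of the second series lying well above the others. The difference was 2.89 when WT 14 d replicate 4 was left out and 1.34 when the replicate 4 array of Mmp13-/- tissue at 14 d was left out, and it was 3.61 without the series term. For the 15 risen genes named in this and the preceding paragraph, the adjusted p lay between 0.0575 and 0.195 without Mmp13-/- 14 d replicate 4, and between 0.0434 and 0.267 without WT 14 d replicate 4.

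**Figure D3:**
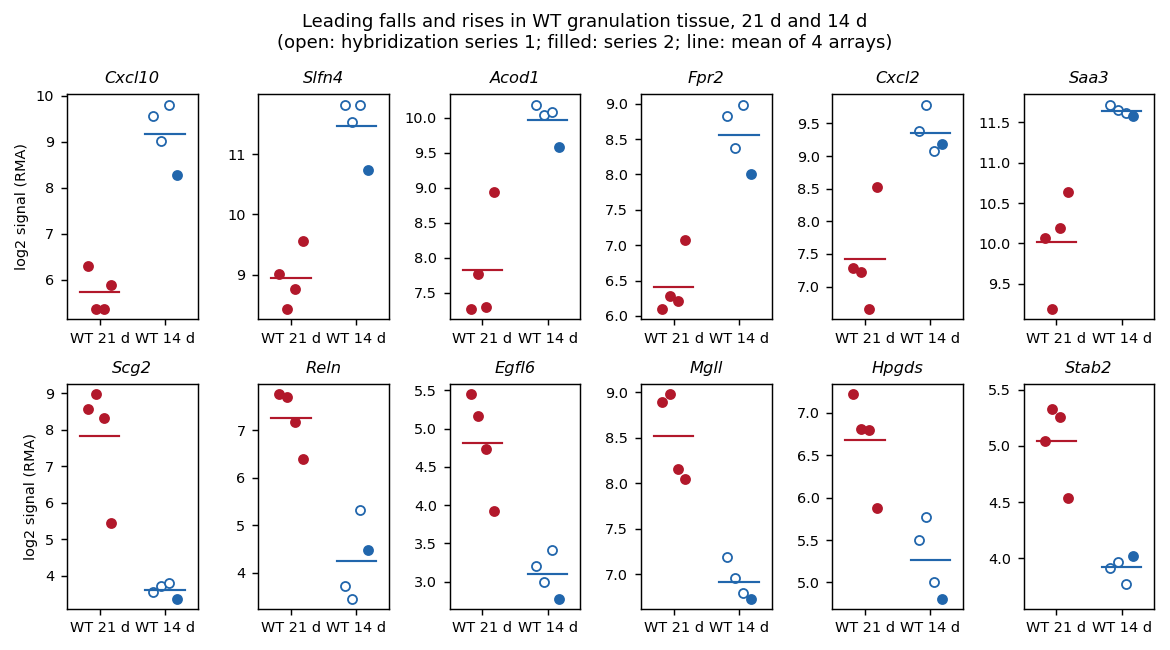
Log2 signal of 6 of the genes that fell (top row) and 6 that rose (bottom row) on the 4 WT arrays at 21 d (red) and the 4 at 14 d (blue), with open circles for the first hybridization series, filled circles for the second and a line at the mean; each panel has its own y axis. In every panel all 21 d arrays lie on one side of all 14 d arrays, including the only 14 d array of the second series.

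The markers of lymphatic endothelium, the lining of lymph vessels, had the highest median difference of the 40 lists, 2.36 over 6 measured genes. Reln was the only member called, and 4 had an unadjusted p under 0.05 with a higher signal, where 0.214% and 7.72% of all genes did. Lyve1, a hyaluronan receptor, read 9.59, 9.50, 8.43 and 7.61 at 21 d, against 5.25, 5.44, 7.50 and 6.19 at 14 d, a difference of 3.27 (standard error 0.82, adjusted p = 0.0783). Mmrn1, a multimerin of platelets and endothelium, read 6.79, 7.05, 3.64 and 5.58 at 21 d, against 2.79, 2.75, 5.52 and 3.11 at 14 d, and Flt4, the receptor for VEGF-C, read 6.91, 7.36, 6.33 and 6.19 at 21 d, against 5.19, 5.15, 6.09 and 5.28 at 14 d. Their differences were 3.09 (adjusted p = 0.122) and 1.64 (adjusted p = 0.0766). WT 14 d replicate 3 was the highest of its day in all 3 genes, and for Mmrn1 it exceeded WT 21 d replicate 3, so that the days overlapped. Prox1, the factor that defines lymphatic identity, stayed low, with 2.68, 2.69, 2.64 and 2.77 at 21 d, against 2.55, 2.46, 3.04 and 2.60 at 14 d and a difference of 0.23 (adjusted p = 0.65). Pdpn, the remaining member, which is also in the fibroblast list, had the only negative difference, -0.20, and was not called. The mean signal of the list was 4.94 to 5.29 at 7 d, 5.16 to 6.48 at 14 d and 6.68 to 7.63 at 21 d. In 20 markers of blood endothelium the median was 0.25, none was called, and 17 differences were positive.

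**Figure D4:**
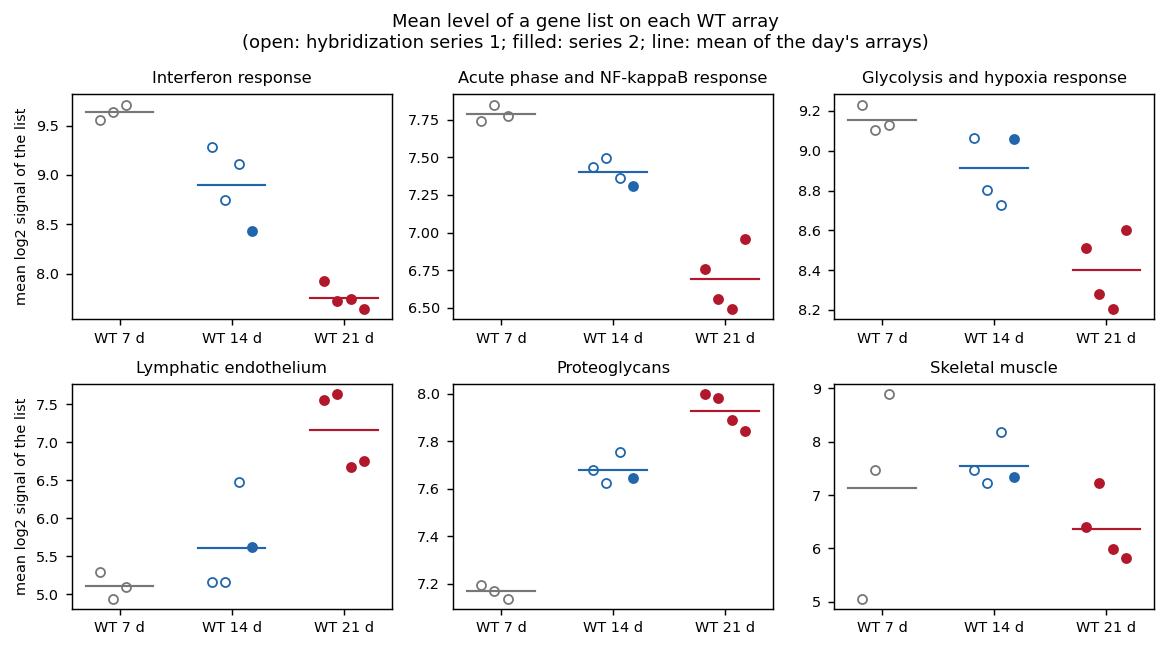
Mean log2 signal of the measured members of 6 gene lists on each WT array at 7 d (gray, 3 arrays), 14 d (blue, 4) and 21 d (red, 4), with open circles for the first hybridization series and filled circles for the second. The interferon list falls on 7.65 to 7.93 at 21 d and on 8.43 to 9.28 at 14 d, while the skeletal muscle list ranges over 5.06 to 8.89 among the 7 d arrays alone.

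Of 20 interstitial collagens none was called. Their differences were positive for 10 and negative for 10, ran from -0.71 to 1.35 and had a median of 0.01. An unadjusted p under 0.05 was found for 2 with a higher signal (7.72% of all genes) and 2 with a lower (7.87%). The days did not overlap for 2 in each direction, against 8.37% of all genes that were higher at 21 d and 6.32% that were lower. Col3a1 read 13.31, 13.34, 13.13 and 13.29 at 21 d, against 13.41, 13.39, 13.49 and 13.38 at 14 d, a difference of -0.11 (adjusted p = 0.629). Col8a2 and Col11a1, minor collagens, had higher signals with differences of 1.14 (adjusted p = 0.123) and 1.35 (adjusted p = 0.352), while Col23a1 and Col5a3, a transmembrane and a type V collagen chain, had -0.71 (adjusted p = 0.304) and -0.59 (adjusted p = 0.328). The value for Col11a1 was 2.57 without WT 14 d replicate 4 and 0.62 without Mmp13-/- 14 d replicate 4. Col22a1, a collagen gene outside the list and picked after its values were seen, rose by 0.81 (adjusted p = 0.0278). It read 4.16, 4.23, 4.37 and 3.94 at 21 d, against 3.77, 3.95, 3.97 and 3.34 at 14 d, so the days overlapped. Its adjusted p was 0.1 without Mmp13-/- 14 d replicate 4 and 0.189 without WT 14 d replicate 4. Of 20 genes of collagen processing and cross-linking 7 had an unadjusted p under 0.05 with a lower signal (7.87% of all genes) and 1 fell (0.346% of all genes), with a median of -0.28. That gene was P4ha2, a subunit of the prolyl hydroxylase that stabilizes the collagen helix, with 8.86, 8.28, 8.31 and 8.52 at 21 d, against 9.29, 9.02, 9.28 and 9.45 at 14 d and a difference of -0.90 (standard error 0.18, adjusted p = 0.0347). Loxl3, a lysyl oxidase that cross-links collagen, differed by -0.61 (adjusted p = 0.0953), and Plod3, a lysyl hydroxylase, by -0.35 (adjusted p = 0.144). A dimmer probe set of Plod2, another lysyl hydroxylase gene, was called, with 6.57, 6.02, 6.29 and 6.51 at 21 d, against 7.76, 7.65, 7.60 and 7.39 at 14 d. Its difference was -1.08 (standard error 0.19, adjusted p = 0.0261). Has2, the hyaluronan synthase, is in no list and was picked after its values were seen. It read 4.04, 4.03, 4.13 and 4.65 at 21 d, against 6.05, 6.65, 6.27 and 5.76 at 14 d, a difference of -1.39 (standard error 0.22, adjusted p = 0.0191). Without Mmp13-/- 14 d replicate 4 the adjusted p of P4ha2 and Has2 were 0.109 and 0.0545, and without WT 14 d replicate 4 both were lost as well (0.266 and 0.172).

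No proteoglycan, elastic fibre or insulin-like growth factor (IGF) gene was called by its brightest probe set. Of 16 proteoglycans 5 had an unadjusted p under 0.05 with a higher signal, against 7.72% of all genes, and 2 with a lower, against 7.87%, and 10 differences were positive and 6 negative, with a median of 0.14. Fmod, fibromodulin, which shapes collagen fibrils, read 10.64, 10.83, 10.27 and 10.37 at 21 d, against 8.21, 8.31, 9.43 and 8.79 at 14 d, a difference of 1.58 (adjusted p = 0.306) with 6 of 6 probe sets of the same sign, and Ogn, osteoglycin, read 10.13, 10.06, 9.34 and 9.01 at 21 d, against 8.51, 8.24, 8.47 and 8.49 at 14 d, a difference of 1.33 (adjusted p = 0.0987). Matn4, a matrilin, differed by 1.15 (adjusted p = 0.0861), Fbn2, a fibrillin, by 0.94 (adjusted p = 0.174), and Mgp, which keeps matrix from calcifying, by 1.096 (adjusted p = 0.318), a value that was 0.34 without WT 14 d replicate 4 and 1.55 without Mmp13-/- 14 d replicate 4. Emilin2, an elastic fibre glycoprotein, differed by -0.55 (adjusted p = 0.0775). Of 12 genes of the IGF system 5 had an unadjusted p under 0.05 with a higher signal (7.72% of all genes) and 1 with a lower (7.87%). The median of the list was 0.36, and its sign turned without the series term (-0.06). Igf1 read 11.29, 11.25, 11.09 and 11.12 at 21 d, against 10.47, 10.48, 10.09 and 10.72 at 14 d, a difference of 0.64 (adjusted p = 0.0701). A dimmer Igf1 probe set was called, with 10.35, 10.25, 10.34 and 9.83 at 21 d, against 9.37, 9.18, 9.36 and 9.24 at 14 d. Its difference was 1.15 (standard error 0.19, adjusted p = 0.0203). The binding protein gene Igfbp5 differed by 1.09 (adjusted p = 0.143). Among the Wnt genes Sfrp1, a secreted inhibitor, read 9.07, 9.45, 9.30 and 8.68 at 21 d, against 8.08, 8.02, 7.51 and 7.77 at 14 d, a difference of 1.25 (adjusted p = 0.118). Of the TGF-beta and BMP genes the ligand Bmp2 differed by -0.70 (adjusted p = 0.111) and Smad6, an inhibitor of its signalling, by 0.69 (adjusted p = 0.13). None of the 32 TGF-beta and BMP genes or 31 Wnt genes of the lists was called by its brightest probe set. Fzd8, a Wnt receptor gene outside the list and picked after its values were seen, rose by 0.83 (adjusted p = 0.0441). Its days did not overlap. Its adjusted p was 0.123 without Mmp13-/- 14 d replicate 4 and 0.299 without WT 14 d replicate 4. A dimmer probe set of Bmpr2, a BMP receptor gene, was called lower, without overlap of the days. It differed by -0.67 (adjusted p = 0.0293), and its series difference was -1.06.

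**Figure D5:**
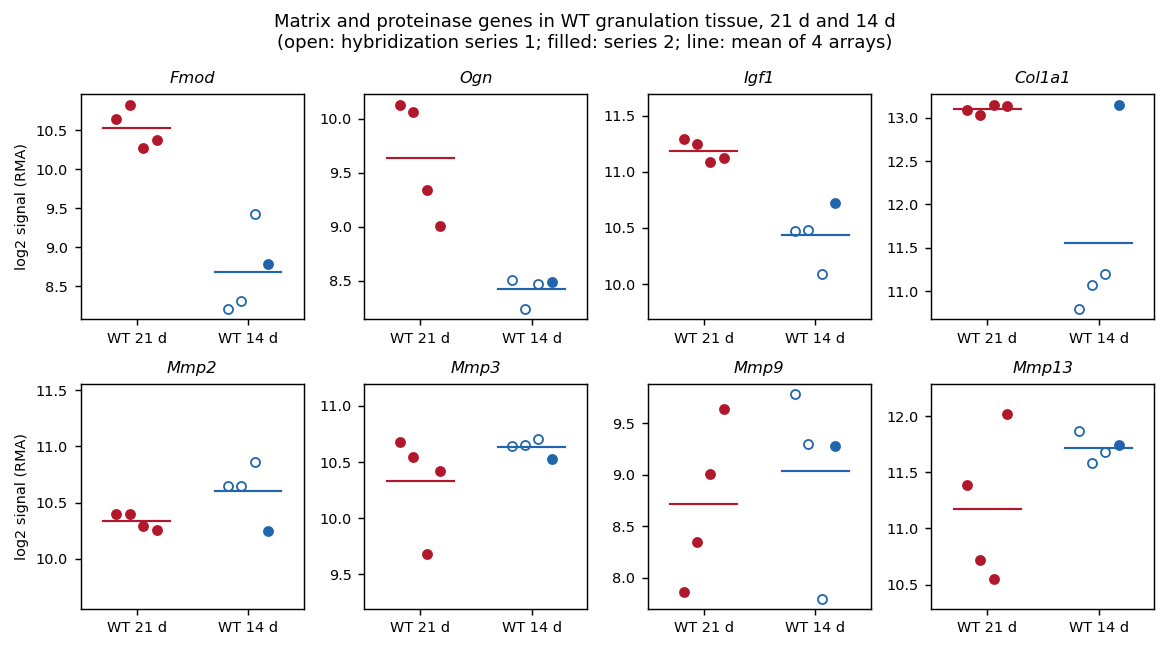
Log2 signal of 4 matrix genes (top row) and 4 matrix metalloproteinases (bottom row) on the 4 WT arrays at 21 d (red) and the 4 at 14 d (blue), with open circles for the first hybridization series, filled circles for the second and a line at the mean; each panel has its own y axis. All 21 d arrays lie above all 14 d arrays for Fmod, Ogn and Igf1, the only high 14 d array of Col1a1 (13.15) is that of the second series, and the days overlap for Mmp2, Mmp3, Mmp9 and Mmp13.

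No matrix metalloproteinase was called among 16 measured, and the median of their differences was 0.02. Mmp13, the collagenase whose loss the series studies, read 11.39, 10.72, 10.55 and 12.02 at 21 d, against 11.87, 11.58, 11.68 and 11.74 at 14 d, a difference of -0.65 (standard error 0.35, adjusted p = 0.422). Mmp2, a gelatinase of fibroblasts, read 10.40, 10.40, 10.29 and 10.26 at 21 d, against 10.65, 10.65, 10.86 and 10.25 at 14 d, a difference of 0.13 (adjusted p = 0.772), and its sign turned without the series term (-0.27). Mmp3, stromelysin, differed by -0.17 (adjusted p = 0.899), and Mmp9, the gelatinase of neutrophils and macrophages, by -0.49 (adjusted p = 0.728). The aggrecanase Adamts4 differed by 0.09 (adjusted p = 0.933), and Adamts1 by 0.81 (adjusted p = 0.0959), and none of the 23 ADAMTS and ADAM genes was called. Wfdc1, a small secreted protein of the proteinase inhibitor list, read 5.03, 4.79, 4.71 and 4.65 at 21 d, against 5.18, 5.40, 5.17 and 5.58 at 14 d and fell, with -0.75 (standard error 0.13, adjusted p = 0.0261). Its adjusted p was 0.0703 without Mmp13-/- 14 d replicate 4 and 0.174 without WT 14 d replicate 4. Timp1 and Timp2, tissue inhibitors of metalloproteinases, had opposite signs, with -0.58 (adjusted p = 0.136) and 0.36 (adjusted p = 0.182), and Serpinb2, the plasminogen activator inhibitor of activated macrophages, differed by -2.12 (adjusted p = 0.177).

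Contractile genes differed in both directions. Of 19 myofibroblast and smooth muscle genes none was called, the median was 0.04, and the differences ran from -1.325 to 1.402. An unadjusted p under 0.05 was found for 4 with a higher signal (7.72% of all genes) and 1 with a lower (7.87%). The days did not overlap for 3 that were higher at 21 d, against 8.37% of all genes, and 5 that were lower, against 6.32%. Acta2 read 11.68, 11.31, 11.87 and 11.70 at 21 d, against 11.35, 11.13, 11.82 and 11.60 at 14 d, a difference of 0.15 (adjusted p = 0.883). Actg2, enteric smooth muscle actin, and Itga8, an integrin chain of contractile stroma, had no overlap between days and differed by 1.29 (adjusted p = 0.216) and 1.403 (adjusted p = 0.148), while Nt5e, the ectonucleotidase CD73, differed by -1.32 (adjusted p = 0.0673). Of 39 cell cycle genes 28 differences were negative, with a median of -0.14, and 1 fell, against 0.346% of all genes. That gene was Cenpf, of a centromere protein, with 4.87, 4.64, 5.19 and 5.06 at 21 d, against 5.47, 5.51, 5.46 and 5.93 at 14 d. Its difference was -0.81 (standard error 0.17, adjusted p = 0.0463), although only 1 of its 3 probe sets had that sign. Without WT 14 d replicate 4 the difference of Cenpf was -0.51. Cdc20 and Prc1, which act late in mitosis, differed by -0.50 (adjusted p = 0.147) and -0.39 (adjusted p = 0.151). Cdc16, a cell division gene outside the list and picked after its values were seen, rose by 0.57 (adjusted p = 0.0261). It read 9.18, 8.94, 9.18 and 9.09 at 21 d, against 8.66, 8.64, 8.74 and 8.56 at 14 d. Its adjusted p was 0.114 without Mmp13-/- 14 d replicate 4 and 0.121 without WT 14 d replicate 4. Runx3, a transcription factor of cytotoxic and other lymphocytes and of macrophages, fell, with 4.42, 4.53, 3.93 and 4.86 at 21 d, against 5.73, 5.15, 5.65 and 5.91 at 14 d and a difference of -1.44 (standard error 0.22, adjusted p = 0.0191). Its other probe set had the opposite sign. Aldh1l2, a mitochondrial enzyme of folate metabolism, fell by 1.44 (adjusted p = 0.0261), and Gpat3, of triglyceride synthesis, differed by -1.74 (adjusted p = 0.0448). Itgb7, an integrin chain of gut-homing leukocytes, Mxd1, an antagonist of MYC, and Cdkn1a, the cell cycle inhibitor p21, were picked after their values were seen. They differed by -1.002 (adjusted p = 0.0191), -1.43 (adjusted p = 0.0312) and -0.75 (adjusted p = 0.0261). Without Mmp13-/- 14 d replicate 4 the adjusted p of the 7 called genes of this paragraph that fell lay between 0.0575 and 0.223. Without WT 14 d replicate 4 it lay between 0.0538 and 0.495.

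Npy, neuropeptide Y, split the 21 d arrays. Its signals were 4.84, 8.42, 9.34 and 9.08 at 21 d, against 4.62, 4.66, 4.54 and 4.75 at 14 d, with 1 array at the 14 d level, and 4.48, 8.48 and 8.76 at 7 d. The difference of 3.25 (standard error 1.55, adjusted p = 0.35) did not pass. Keratinocyte markers, from skin that may be cut with the sponge, had a median of -0.07 over 28 genes, and none was called, with Dmkn, an epidermal secreted protein, at -1.90 (adjusted p = 0.0953). The mean signal of these markers was 4.38 on WT 21 d replicate 3 and 3.89 to 4.03 on the other 21 d arrays, against 4.74 and 4.965 on WT 14 d replicates 1 and 3 and 3.96 and 3.87 on replicates 2 and 4. The part of such tissue in the results was not tested.

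The same interval in Mmp13-/- tissue was fitted for the genes above, and each genotype keeps its own arrays while sharing the series term, so agreement between them is not independent. For Cxcl10 the difference was -2.48 in Mmp13-/- tissue (adjusted p = 0.0959) and -3.17 in WT tissue, for Slfn4 -1.90 (adjusted p = 0.0498) and -2.19, for Scg2 2.85 (adjusted p = 0.0967) and 4.49, and for Saa3 -0.38 (adjusted p = 0.624) and -1.71. For Npy it was -2.45 in Mmp13-/- tissue (adjusted p = 0.506) and 3.25 in WT tissue. In Mmp13-/- tissue 36 probe sets were called, 14 higher (0.0311%) and 22 lower (0.0488%). The change itself differed between genotypes for 0 of 45037 probe sets by limma at an adjusted p under 0.05, with 2965 at an unadjusted p under 0.05 (6.58%), so no gene here is shown to change differently between Mmp13-/- and WT tissue.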

How the data were processed

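Gene expression was measured in WT and Mmp13-/- granulation tissue on Affymetrix whole-genome mouse arrays, 1 per sample. The authors normalized the arrays by RMA, and the deposited log2 values, with 2 decimals, cover 45101 probe sets on 22 arrays in 1 table. Whether both hybridization series were normalized in 1 run is not given in the sources used here. No depth applies to arrays, and their number limits the precision.

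Control probe sets (64) were dropped, which left 45037 for testing without any filter on signal. One limma model (version 3.58.1, R 4.3.3) of all 22 arrays held the means of 6 genotype-by-day groups plus a term for hybridization series, and had 15 residual degrees of freedom with 4.57 more from the prior. WT 21 d minus WT 14 d was read from this model, with Benjamini-Hochberg adjustment across the whole set of probe sets (limma). The steps were tested on simulated data. Same-numbered replicates of the 2 days were not paired by the labels.

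Of the probe sets, 34945 carry 1 gene symbol in the platform annotation, 932 several and 9160 none. The 40 gene lists (23 of pathways, 17 of cell types) hold 850 genes, of which 779 were measured. The members of the comparison and the lists were chosen with earlier results of these data known. The genes named were drawn from the 15 called genes that rose most, the 15 that fell most, the 4 lowest adjusted p-values in every list, and Mmp2, Mmp3, Mmp9, Mmp13, Adamts4 and Npy. Named outside this rule, after their values were seen, are Helz2, Trim30d, Nfkbie, Tnfaip6, Sod2, Il17ra, Ptgs2, Ccl2, Gzmb, Ak4, Stc1, Gys1, Has2, Itgb7, Mxd1, Cdkn1a, Nfe2, Spats2l, Iigp1, Cxcl3, Prox1, Pdpn, Col1a1, Col3a1 and Acta2, and the dimmer probe sets of Igf1 and Plod2. So are Ifi27, Col22a1, Fzd8, Cdc16 and a dimmer probe set of Bmpr2. Alternatives were no series term, the series as a random block, WT arrays or the second series alone, a replicate block, median centring, a filter on dim probe sets, a variance trend and leaving out each of 12 arrays.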

Additional observations from a re-analysis of the deposited data

Results flagged for a closer look

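Among 314 groups of 4 arrays checked, 20 held an array whose gap to its nearest neighbour exceeded Dixon's critical value for 4 samples, where chance gives about 1 in 20. At 21 d, WT replicate 4 stood apart for 6 genes. It was high for S100a8 (11.08, the others 9.43 to 9.70), S100a9 (10.62, the others 8.82 to 8.94) and Has2 (4.65, the others 4.03 to 4.13), and low for Atp6v0d2 (10.74, the others 10.95 to 10.99), Kcne4 (6.52, the others 7.55 to 7.71) and Matn4 (4.93, the others 6.04 to 6.22). WT 21 d replicate 2 was high for Timp2 at 11.72, and replicate 1 was high for the mean of the macrophage and monocyte list at 8.95.

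At 14 d, the array of the second hybridization series, WT replicate 4, stood apart for 5 genes. It was high for Col1a1 (13.15, the others 10.80 to 11.20), Cdkn2a (6.26, the others 3.06 to 3.52), Sod2 (10.55, the others 10.34 to 10.37) and Cenpf (5.93, the others 5.46 to 5.51), and low for Mxd1 (7.04, the others 7.77 to 7.88). WT 14 d replicate 3 was high for Mmrn1 (5.52, the others 2.75 to 3.11), Flt4 (6.09, the others 5.15 to 5.28), Igfbp5 (8.75, the others 7.62 to 7.79) and the mean of the Wnt list (5.11, the others 5.02), and low for Atp6v0d2 (9.55, the others 10.29 to 10.36). WT 14 d replicate 2 was high for Chil3 at 7.83 and low for Ogn at 8.24.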

How the results depend on the processing

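The count of probe sets called between 21 d and 14 d in WT tissue (189) was the result that depended most on the processing. It was 4657 without the hybridization term (145 of the 189 were among them, and 9 of the 189 turned sign), 774 with the series as a random block (estimated correlation 0.21), 324 among probe sets above the median mean signal, 306 with an intensity trend in the variance, 0 with only the 11 WT arrays, 0 with only the 10 arrays of the second series and 0 with only the 8 WT arrays of 14 d and 21 d (a fit added after seeing the data). With the replicate number as a block, 1 probe set was called. The numbers pair no samples by their labels, the correlations of same-numbered deviations were 0.104, -0.0902, 0.00909 and 0.0618, and 2 of the 4 WT 14 d arrays correlated best with their own number. Centring the arrays on their medians kept the count within 1.5 times, with 141 calls (48 higher and 93 lower). Leaving out 1 array at a time gave 6 to 671 calls. The count at an unadjusted p under 0.05 (6370) was 12462 without the hybridization term, 2244 in the second series alone, 4004 among the brighter probe sets, of which fewer were tested, and 3696 in the 8 WT arrays, and 4561 to 7590 when 1 array was left out. With an absolute log2 difference over 1 as well (350), it was 943 without the term and 298 to 812 when 1 array was left out, the highest without WT 14 d replicate 4. The genotype difference in change was called for 0 probe sets in the 22-array fit and 0 to 0 when 1 array was left out. Apart from the fits with fewer groups, arrays or probe sets, the cause of these differences was not tested.

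Among the 117 genes whose values were recomputed, the sign turned for 4, none of them called: Mmp2 (-0.27 without the term, -0.0897 with the random block and -0.0888 with the replicate block), Mmp3 (-0.29 to 0.0475 when 1 array was left out), Adamts4 (-0.13 to 0.31 likewise) and Col1a1 (-0.0525 with only the 11 WT arrays, -0.0525 with only the second series, -0.0525 with the 8 WT arrays, and -0.0525 to 0.38 when 1 array was left out). Of the 54 called genes among these, 48 stayed called after median centring, 54 without the series term and 54 with the random block, against 0 in the fits of fewer arrays by group or series, with the replicate block and without Mmp13-/- 14 d replicate 4, and 5 without WT 14 d replicate 4. The median of the interferon list lay between -1.04 and -0.61 over the alternatives that kept all replicates or whole groups, that of the glycolysis and hypoxia list between -0.65 and -0.34, and that of the lymphatic list between 1.75 and 2.44. Of the 40 list medians 22 turned sign in at least 1 alternative, and the largest of these was that of the IGF system (0.36). Leaving out 1 array moved the difference of 23 named genes by over 1.5 times, of which Cdkn2a and Cenpf were called. Precision is limited by the single WT 14 d array of the second series.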

Other observations

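Several lists not described above held no called gene. B and plasma cell markers had a median log2 difference (WT 21 d minus WT 14 d) of 0.29 over 15 genes. Of these, 3 had an unadjusted p under 0.05 and a higher signal (7.72% of all genes) and 2 a lower (7.87%). Dendritic cell markers had a median of 0.23 over 13 genes, and Schwann cell and nerve markers of 0.23 over 17, of which 15 were positive. The 17 fibroblast markers had a median of -0.20, with 12 negative differences. Medians were 0.19 for 23 matricellular and adhesive glycoproteins, -0.12 for 15 complement genes, 0.16 for 9 genes of MHC class II presentation and -0.01 for 18 adipocyte markers. Over all genes the median was 0.01.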
